A study of Homo sapiens with 12 samples.

Results

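Expression of 8 genes of the proximal T cell receptor (TCR) signalling pathway was examined, out of 60671 genes in the deposited table. They were chosen by name as the kinases LCK, FYN and ZAP70, the adaptors LAT, LCP2 and GRAP2, and the effectors PLCG1 and VAV1, and all 8 names were found in the table. RNA-seq was performed on 12 libraries labelled Jurkat, a line from a human acute leukemia of T cells. The libraries formed 4 groups of 3. NC+DMSO and PTPN21+DMSO received the solvent DMSO, and NC+VCR and PTPN21+VCR received vincristine (VCR), a drug that blocks microtubule assembly, all for 48 h. The NC cells are called WT in the sample labels and are described as carrying a GFP vector in the study's methods. The PTPN21 cells carried a lentiviral construct in which the SFFV promoter drove PTPN21, a protein tyrosine phosphatase, with a FLAG tag. The VCR dose of these libraries was not given in the sources used here.

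When a T cell receptor binds its ligand, LCK and its relative FYN, both Src family kinases, phosphorylate the tails of the CD3 chains. ZAP70 docks there and phosphorylates the membrane adaptor LAT and the cytosolic adaptor LCP2 (SLP-76), which GRAP2 (GADS) bridges. The complex recruits PLCG1, which makes the second messengers for the calcium and Ras branches, and VAV1, an exchange factor for small GTPases. In T cells the members of this pathway are usually expressed together, and members of it are also used by other blood cells.

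The label of the cells was checked against marker genes before the pathway was described. Of 11 T lineage markers, 9 had a mean below 1 FPKM (fragments scaled to gene length and to the total of the library) over the 12 libraries. CD247, the CD3 zeta chain, and the coreceptors CD5 and CD28 were listed at 0 in all 12, and CD3E at 0 in 9. The exceptions were CD3D, at 61.8 to 140 FPKM, and TRBC1, with a mean of 1.81. The summed T lineage markers, mostly CD3D, were 64.0 to 98.6 in NC+DMSO and 119 to 146 in PTPN21+DMSO, against 110 to 137 in NC+VCR and 109 to 115 in PTPN21+VCR. All 5 T lineage transcription factors examined (GATA3, TCF7, BCL11B, RUNX3 and TOX) had means below 1. Of 7 B lineage markers only BTK reached 1, and of 7 myeloid markers CD33, LYZ, CD68 and SPI1 did.

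By contrast, all 13 erythroid genes examined, among them the globin genes HBG1 and HBG2 and the erythroid factor GATA1, had means of at least 1 and were at 0 in no library. Their summed level was 1770 to 2600 FPKM in NC+DMSO and 3590 to 4760 in PTPN21+DMSO, against 1010 to 1060 in NC+VCR and 1240 to 1420 in PTPN21+VCR. The erythroid genes, the T lineage factors and a set of 15 housekeeping genes were listed after values of the table had been seen, and were not tested as lists. The data thus go against the label of a T cell line for most T lineage markers, and the samples are called libraries labelled Jurkat below. All 15 housekeeping genes were above 0 in every library, and of 80 ribosomal protein genes only RPL10L was at 0 in all 12.

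The overexpressed gene followed the labels, with PTPN21 at 0.0212 to 0.0934 FPKM in NC+DMSO, 0.16 to 0.569 in NC+VCR, 7.93 to 10.5 in PTPN21+DMSO and 4.34 to 6.53 in PTPN21+VCR. Depth was estimated from the steps in which low FPKM values fell, at 28900000 to 47800000 steps per library, where 1 step may be a fragment or 1 read of a pair. The estimate was higher in every PTPN21 library than in any NC library, so depth and construct cannot be told apart. The sources do not say whether replicates were separate cultures, so p-values measure the spread between these libraries.

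**Figure D1:**
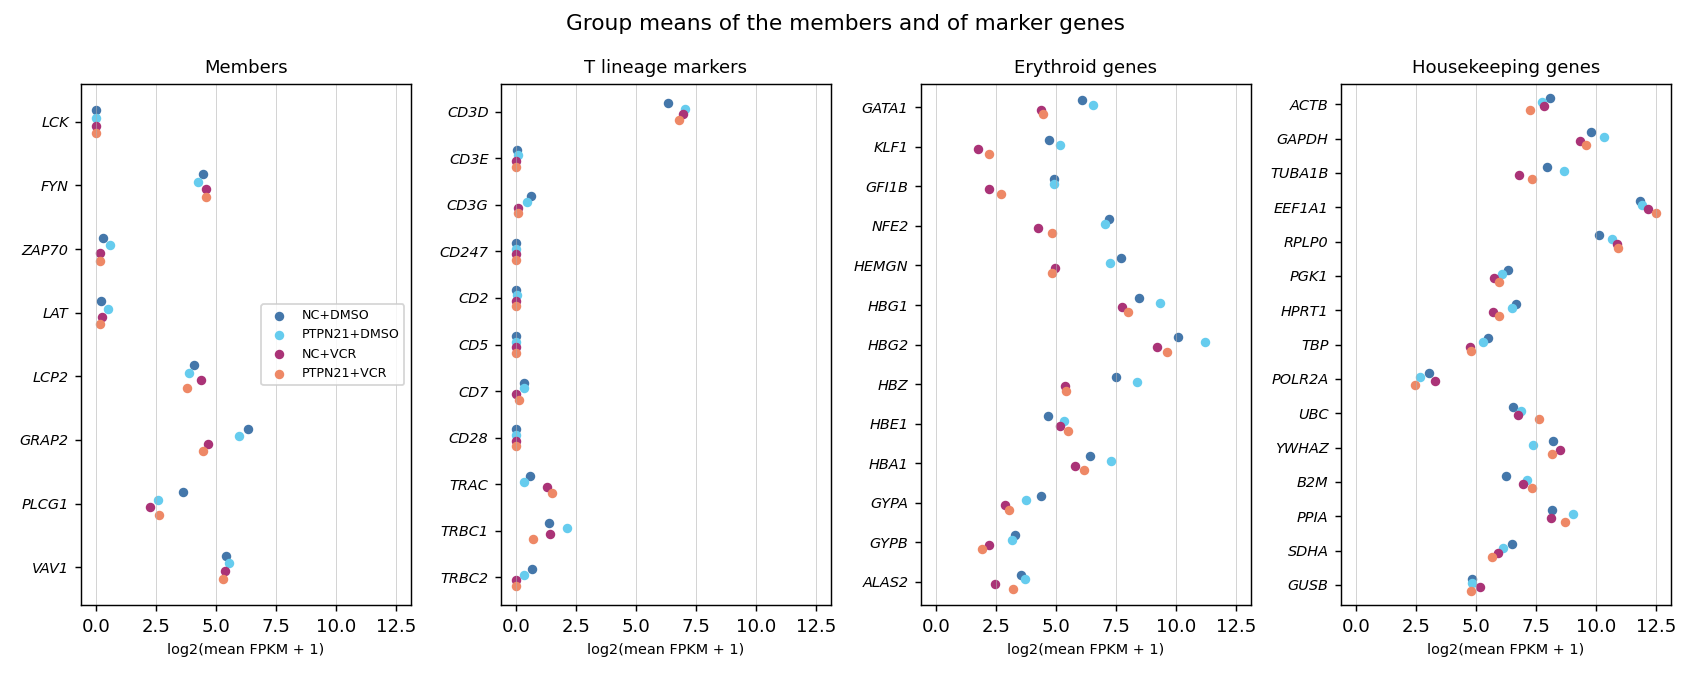
Mean FPKM of each gene in each of the 4 groups, as log2(mean FPKM + 1) on the horizontal axis, for the 8 members, T lineage markers, erythroid genes and housekeeping genes; each point is the mean of 3 libraries. LCK, ZAP70 and LAT sit at the left edge with most T lineage markers other than CD3D, while 5 members and all 13 erythroid genes lie to the right.

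The 8 members split into 5 that were clearly detected and 3 that were not. GRAP2, VAV1, FYN, LCP2 and PLCG1 had means over the 12 libraries of 46.1, 41.1, 21.1, 15.3 and 6.26 FPKM. ZAP70 and LAT had means of 0.230 and 0.214 FPKM, and LCK was listed at 0 throughout. FPKM is scaled to gene length, so these levels can be set side by side. Of the 8 members, 5 reached the mean of 1 FPKM required for testing.

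Promoter sequences are shown for LCK, the member at 0, for GRAP2, the member that differed most with VCR, and for VAV1, the highest member under VCR. RefSeq gives 16 start sites for the 8 members. The 250 bases before each start were searched on both strands for AGATAA and TGATAA, which GATA factors such as GATA1 bind, CGGAAG of ETS factors and TGTGGT of RUNX factors. The 2 GATA forms share their last 5 letters, none of the matches shown overlapped another, and TGATAA was added after the promoters had been seen. Capitals mark matches to any of these, read on either strand, and each sequence is on the GRCh38.p14 plus strand, 5′ to 3′.
LCK first start, chr1:32251015-32251264: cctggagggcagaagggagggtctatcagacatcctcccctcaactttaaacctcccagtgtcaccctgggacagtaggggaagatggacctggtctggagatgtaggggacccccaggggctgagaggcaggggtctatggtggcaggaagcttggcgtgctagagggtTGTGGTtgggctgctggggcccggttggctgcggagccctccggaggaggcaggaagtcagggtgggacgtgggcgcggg
LCK second start, chr1:32273871-32274120: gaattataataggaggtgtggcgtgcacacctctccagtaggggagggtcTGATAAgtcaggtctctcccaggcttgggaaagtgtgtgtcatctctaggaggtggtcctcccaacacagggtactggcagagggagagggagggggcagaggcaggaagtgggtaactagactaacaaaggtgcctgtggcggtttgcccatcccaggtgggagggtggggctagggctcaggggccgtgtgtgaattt
GRAP2 first start, chr22:39926354-39926603: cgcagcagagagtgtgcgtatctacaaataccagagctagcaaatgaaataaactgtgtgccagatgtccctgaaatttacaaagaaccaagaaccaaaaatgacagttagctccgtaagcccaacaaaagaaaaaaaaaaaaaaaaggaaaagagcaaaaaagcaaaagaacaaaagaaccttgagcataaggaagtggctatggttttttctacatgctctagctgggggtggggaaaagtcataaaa
GRAP2 second start, chr22:39946567-39946816: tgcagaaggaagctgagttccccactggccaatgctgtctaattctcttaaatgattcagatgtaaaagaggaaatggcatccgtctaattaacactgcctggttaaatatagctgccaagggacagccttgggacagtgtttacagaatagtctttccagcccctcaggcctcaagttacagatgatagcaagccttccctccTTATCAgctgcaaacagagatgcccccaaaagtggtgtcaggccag
VAV1, chr19:6772458-6772707: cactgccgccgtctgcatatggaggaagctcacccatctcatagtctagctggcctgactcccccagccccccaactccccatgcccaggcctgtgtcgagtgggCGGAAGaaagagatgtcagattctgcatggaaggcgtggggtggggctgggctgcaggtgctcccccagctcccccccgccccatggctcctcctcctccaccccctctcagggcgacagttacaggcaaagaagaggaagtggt

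The first LCK window held 1 TGTGGT, a motif present in 11.0% of 35116 promoters of the same length, and the second held 1 TGATAA, present in 6.66%. The second GRAP2 window held 1 TTATCA, the reverse complement of TGATAA, and the first GRAP2 window held none of the motifs. VAV1 held 1 CGGAAG, present in 16.5% of all promoters. None of the windows shown held AGATAA, present in 9.17% of all promoters, so the only GATA matches shown are to TGATAA. The GRAP2 windows were poor in CpG, with 3 and 1 CpG dinucleotides and a GC content of 38.4% and 47.2%, against medians of 11 and 58.0% over all promoters. The LCK windows had 7 and 3 CpG dinucleotides with a GC content of 64.4% and 57.6%, and VAV1 had 7 with 63.6%. A match is a run of letters, and binding was not measured.

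LCK (ENSG00000182866), the Src family kinase that starts the cascade, lies on chromosome 1 between 32251239 and 32286165 (plus strand) in GENCODE release 29 (GRCh38), which is the annotation used here for every gene position. It was listed at 0 FPKM in all 12 libraries. At the estimated depths, 3 steps would have given LCK a value of 0.0188 to 0.0311 FPKM. Levels below that could have been missed in a single library, a limit that covers counting error only. No fold change was computed, since both sides of every comparison were at 0.

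FYN (ENSG00000010810), the other Src family kinase of the pathway, lies on chromosome 6 between 111660332 and 111873452 (minus strand). It was present in every library. Its FPKM was 20.9, 23.0 and 19.0 in NC+DMSO and 13.4, 18.4 and 21.1 in PTPN21+DMSO. In the treated cells it was 18.3, 35.1 and 15.0 in NC+VCR and 19.7, 23.1 and 25.9 in PTPN21+VCR. The 4 groups overlapped, and replicate 2 of NC+VCR stood above all other libraries.

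No comparison of FYN passed an adjusted p of 0.05 in limma. The log2 fold change with VCR was 0.03 (95% interval -0.55 to 0.61) in NC cells and 0.37 (-0.21 to 0.95) in PTPN21 cells, and the first of these was -0.076 under TPM scaling and 0.41 under median ratio scaling. The values for PTPN21 overexpression were -0.25 (-0.83 to 0.32) in DMSO and 0.09 (-0.49 to 0.67) in VCR. Because LCK was at 0, the within-library difference of FYN to LCK on the log2(FPKM + 1) scale equals the FYN level itself, and it gave exact two-sided permutation p = 1, 0.2, 0.3 and 0.9 in the 4 comparisons in the same order (1, 0.6, 0.6 and 1 after Benjamini-Hochberg over the 4). The smallest p that 3 against 3 libraries allow is 0.1.

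ZAP70 (ENSG00000115085), the kinase that docks on phosphorylated CD3 chains, lies on chromosome 2 between 97713560 and 97739862 (plus strand). Its FPKM was 0.115, 0 and 0.518 in NC+DMSO and 0.549, 0.674 and 0.219 in PTPN21+DMSO. In VCR it was 0.0427, 0.331 and 0 in NC+VCR and 0.307, 0 and 0 in PTPN21+VCR. No library reached 1 FPKM, 4 were at 0, and PTPN21+DMSO was the only group with no library at 0. Without the filter on low values, 28170 genes were tested and ZAP70 passed in none of the 5 tests, its lowest adjusted p in limma being 0.234 for PTPN21+VCR against PTPN21+DMSO (log2 fold change -0.42, SE 0.191).

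SYK, the relative of ZAP70 used in B and myeloid cells, was at 0 in 10 libraries and did not exceed 0.0138 FPKM. Among Src family relatives, FGR and BLK were at 0 in all 12 libraries, SRC had a mean of 1.10 FPKM and YES1 one of 12.8. FYN and YES1 thus had the highest levels of the Src family kinases named here.

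LAT (ENSG00000213658), the membrane adaptor that ZAP70 phosphorylates, lies on chromosome 16 between 28984826 and 28990783 (plus strand). It was at 0.396, 0 and 0.0507 FPKM in NC+DMSO and at 0.796, 0.125 and 0.336 in PTPN21+DMSO. Under VCR it was at 0.43, 0.127 and 0 in NC+VCR and at 0, 0.238 and 0.0737 in PTPN21+VCR. Every library lay below 1 FPKM and the groups overlapped. Without the filter, LAT passed in none of the 5 tests. Its exons overlap those of AC109460.3 on the same strand, which had a mean of 0.199 FPKM, so reads of LAT could not be told apart from it with certainty. LAT2, the related adaptor of B and myeloid cells, was at 0 in 9 libraries.

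LCP2 (ENSG00000043462), the SLP-76 adaptor, lies on chromosome 5 between 170246237 and 170298227 (minus strand). Its FPKM was 16.1, 13.3 and 17.7 in NC+DMSO and 6.26, 23.8 and 10.3 in PTPN21+DMSO. Under VCR it was 24.2, 12.3 and 21.6 in NC+VCR and 12.9, 12.4 and 12.6 in PTPN21+VCR. PTPN21+DMSO held both the lowest value and nearly the highest, whereas the replicates of PTPN21+VCR were close together, and in all 4 comparisons the groups overlapped. The log2 fold change with VCR was 0.24 (95% interval -0.55 to 1.04) in NC cells and 0.10 (-0.69 to 0.90) in PTPN21 cells, and that of PTPN21+VCR against NC+VCR was -0.53 (-1.32 to 0.26, limma adjusted p = 0.498). BLNK, its relative in B cells, was at 0 in all 12 libraries.

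GRAP2 (ENSG00000100351), the GADS adaptor that links LCP2 to LAT, lies on chromosome 22 between 39901082 and 39973721 (plus strand). It was the member with the highest level in the DMSO groups. Its FPKM was 77.2, 73.6 and 88.8 in NC+DMSO and 59.0, 60.1 and 60.7 in PTPN21+DMSO. Under VCR it was 29.8, 24.7 and 17.3 in NC+VCR and 23.0, 16.3 and 23.4 in PTPN21+VCR. Every VCR library lay below every DMSO library of either cell type, and groups did not overlap for 44.1% of all genes tested with VCR in NC cells and 50.4% in PTPN21 cells.

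With VCR, GRAP2 fell in NC cells from a mean of 79.9 ± 7.99 to 23.9 ± 6.29 FPKM (SD, n = 3). This is a 3.34-fold lower level and a log2 fold change of -1.73 (SE 0.190, limma adjusted p = 6.23e-05). In PTPN21 cells it fell from 59.9 ± 0.854 to 20.9 ± 3.96 FPKM (SD, n = 3), which is 2.87-fold lower, with a log2 fold change of -1.49 (SE 0.190, limma adjusted p = 0.000179). Of all 11591 genes tested, 2.29% had a lower log2 fold change than GRAP2 in NC cells and 2.92% in PTPN21 cells. The test of the difference between the VCR responses gave an interaction of 0.23 (95% interval -0.35 to 0.82, limma adjusted p = 0.715).

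PTPN21 overexpression alone did not pass for GRAP2. In DMSO the PTPN21 libraries lay below the NC libraries without overlap, as those of 33.4% of all genes tested did not overlap in that comparison, and the log2 fold change of -0.40 (95% interval -0.82 to 0.01) had a limma adjusted p of 0.205. Under VCR the groups overlapped and the value was -0.17 (-0.59 to 0.24, limma adjusted p = 0.702). The gene Z82206.1 lies in the GRAP2 locus on the same strand with no shared exon and had a mean of 6.13 FPKM.

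The fall of GRAP2 ran beside lower levels of the erythroid genes, of which 12 of 13 were lower with VCR without overlap in NC cells and in PTPN21 cells. Of all genes tested, 44.1% in NC cells and 50.4% in PTPN21 cells did not overlap, counting higher and lower genes together. The share of genes that were lower without overlap was not computed. The median log2 fold changes of all genes tested were -0.36 and -0.17. The exception among the erythroid genes was HBE1, an embryonic globin gene, with means of 24.4 FPKM in NC+DMSO and 35.2 in NC+VCR (no overlap), and 39.5 in PTPN21+DMSO and 44.3 in PTPN21+VCR (overlapping). GATA1 had means of 66.9 and 92.4 FPKM in NC+DMSO and PTPN21+DMSO and 20.0 and 21.2 in NC+VCR and PTPN21+VCR. The summed myeloid markers were also lower, at 467 to 511 and 345 to 405 FPKM in the DMSO groups and 237 to 310 and 171 to 231 in the VCR groups, in the same order, but that sum was mostly CD68. SPI1, another myeloid marker, was higher with VCR without overlap, with means of 7.49 and 26.2 FPKM in NC cells and 13.2 and 20.6 in PTPN21 cells. Their part in the result was not tested, and in bulk RNA fewer cells of a type and less RNA per cell cannot be told apart.

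PLCG1 (ENSG00000124181), the phospholipase that makes the second messengers of the pathway, lies on chromosome 20 between 41136960 and 41196801 (plus strand). Its FPKM was 7.34, 12.5 and 13.9 in NC+DMSO and 3.89, 4.73 and 5.96 in PTPN21+DMSO. Under VCR it was 2.75, 5.15 and 3.40 in NC+VCR and 7.09, 4.22 and 4.17 in PTPN21+VCR. NC+DMSO stood above the other 3 groups, although its replicate 1 came close to the highest PTPN21+VCR library, and those 3 groups overlapped.

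In NC cells PLCG1 fell with VCR from 11.3 ± 3.47 to 3.77 ± 1.24 FPKM (SD, n = 3), a 2.99-fold lower level, with a log2 fold change of -1.35 (SE 0.285, limma adjusted p = 0.00364). In PTPN21 cells it was 4.86 ± 1.04 FPKM in DMSO and 5.16 ± 1.68 in VCR (SD, n = 3), with a log2 fold change of 0.05 (95% interval -0.57 to 0.67, limma adjusted p = 0.912). The difference between these responses, the interaction, was 1.40 (SE 0.403, 95% interval 0.53 to 2.28), a value above 98.4% of all genes tested. Its unadjusted p in limma was 0.00447 and its adjusted p 0.19, so the responses were not shown to differ once all genes tested were taken into account.

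PTPN21+DMSO was below NC+DMSO for PLCG1 by 2.31-fold without overlap, and the groups did not overlap for 33.4% of all genes tested. The log2 fold change of PLCG1 was -1.03 (SE 0.285), with a limma adjusted p of 0.0513, just over the threshold. It passed in 3 of 20 alternative processing settings. These were a minimum mean of 5 FPKM (limma adjusted p 0.0381), TPM scaling (0.0340) and leaving out replicate 2 of NC+VCR (0.0431). In the others it did not pass, with a limma adjusted p of up to 0.193. Under VCR the same comparison gave 0.37 (95% interval -0.25 to 0.99, limma adjusted p = 0.558). ZHX3 overlaps PLCG1 exons on the opposite strand and had a mean of 0.706 FPKM, and whether strand was used in counting was not given in the sources used here. PLCG2, the relative used in B and myeloid cells, had a mean of 1.63 FPKM.

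VAV1 (ENSG00000141968), the exchange factor for small GTPases, lies on chromosome 19 between 6772714 and 6857366 (plus strand). Its FPKM was 40.2, 46.1 and 38.8 in NC+DMSO and 44.2, 44.9 and 45.3 in PTPN21+DMSO. Under VCR it was 44.0, 32.4 and 45.4 in NC+VCR and 35.2, 37.7 and 39.3 in PTPN21+VCR. All 12 libraries lay between 32.4 and 46.1, the narrowest relative range of the 5 tested members.

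No comparison of VAV1 passed in limma. The log2 fold change with VCR was -0.05 (95% interval -0.35 to 0.25) in NC cells, which turned positive under median ratio scaling (0.34). In PTPN21 cells it was -0.26 (-0.56 to 0.05, limma adjusted p = 0.195), where the groups did not overlap, as for 50.4% of all genes tested. For PTPN21 overexpression it was 0.10 (-0.20 to 0.41) in DMSO, which turned negative under TPM scaling (-0.041), and -0.10 (-0.41 to 0.20) in VCR. VAV3 was at 0 in all 12 libraries and VAV2 did not exceed 0.494 FPKM, so VAV1 had the highest level of the family.

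**Figure D2:**
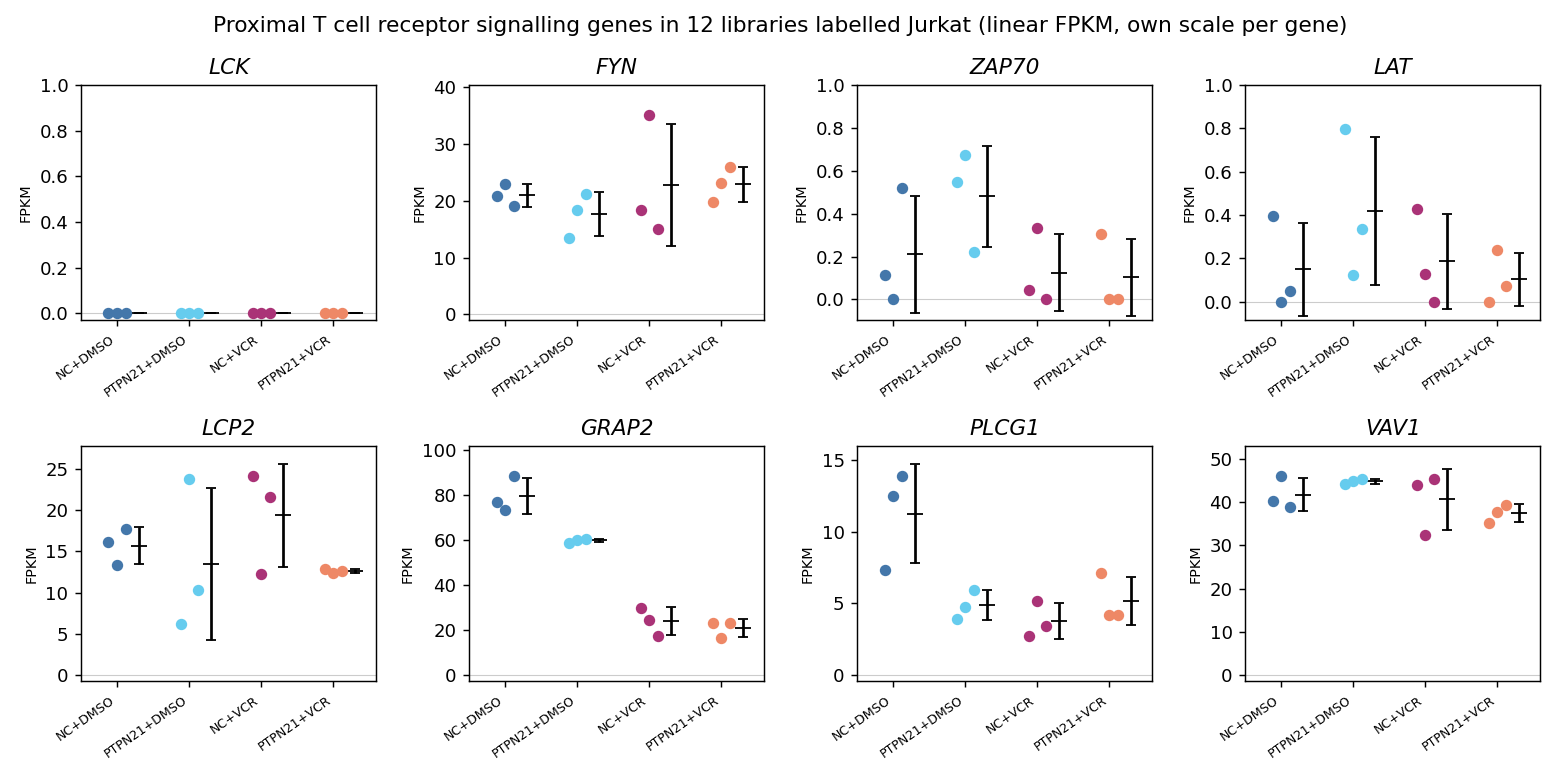
FPKM of each member in each of the 12 libraries on a linear axis with its own scale per gene, with the mean and SD of 3 libraries beside the points of each group. GRAP2 separates the DMSO from the VCR libraries, PLCG1 separates NC+DMSO from the other groups, and LCK is at 0 in every library.

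Among the tested members the order of levels changed with VCR. In both DMSO groups the means ran from GRAP2 through VAV1, FYN and LCP2 to PLCG1. The library ranges of neighbours overlapped for LCP2 and PLCG1 in NC+DMSO, and for FYN and LCP2 in PTPN21+DMSO. In NC+VCR, VAV1 came first at 40.6 FPKM, GRAP2, FYN and LCP2 followed with overlapping ranges, and PLCG1 came last. In PTPN21+VCR, VAV1 (37.4) was followed by FYN and GRAP2 with overlapping ranges, then LCP2 and PLCG1. The mean summed FPKM of the 8 members was 170 in NC+DMSO and 142 in PTPN21+DMSO, against 111 in NC+VCR and 99.2 in PTPN21+VCR. GRAP2 made up 47.0%, 42.5%, 21.4% and 21.0% of that sum.

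Of the 5 tested members, 2 (GRAP2 and PLCG1) were lower and 0 higher with VCR in NC cells, where limma called 36.2% of all genes tested (28.3% lower and 7.91% higher). In PTPN21 cells 1 (GRAP2) was lower and 0 higher, where it called 28.5% of all genes tested (19.3% lower and 9.22% higher). These shares of 40.0% and 20.0% of the members lie near the background. PTPN21 overexpression changed 0 of 5 in DMSO, against 6.34% of all genes (3.69% lower and 2.65% higher), and 0 of 5 in VCR, against 1.82% (0.82% lower and 1.0% higher). The interaction called 0 of 5, against 0.129% of all genes (0.104% lower and 0.0259% higher). At an unadjusted p under 0.05 in limma these counts were 1 (PLCG1, lower) in DMSO, 0 in VCR and 1 (PLCG1, higher) for the interaction, against 25.6%, 17.1% and 14.0% of all genes tested.

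The median log2 fold change of all genes tested was itself below 0, at -0.36 with VCR in NC cells, -0.17 with VCR in PTPN21 cells and -0.14 for PTPN21 overexpression in DMSO. It was 0.03 for PTPN21 overexpression in VCR. The members' medians in the same order were -0.05, 0.05, -0.39 and -0.10. Relative to the median of all genes, GRAP2 fell by 1.36 and 1.33 on the log2 scale with VCR, and PLCG1 fell by 0.99 in NC cells. Under median ratio scaling the median of all genes moved to -0.03 with VCR in NC cells, and GRAP2 and PLCG1 still passed, at -1.33 and -1.0. NC+DMSO serves as the control of 2 comparisons, so the values of PLCG1 in them share those 3 libraries.

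**Figure D3:**
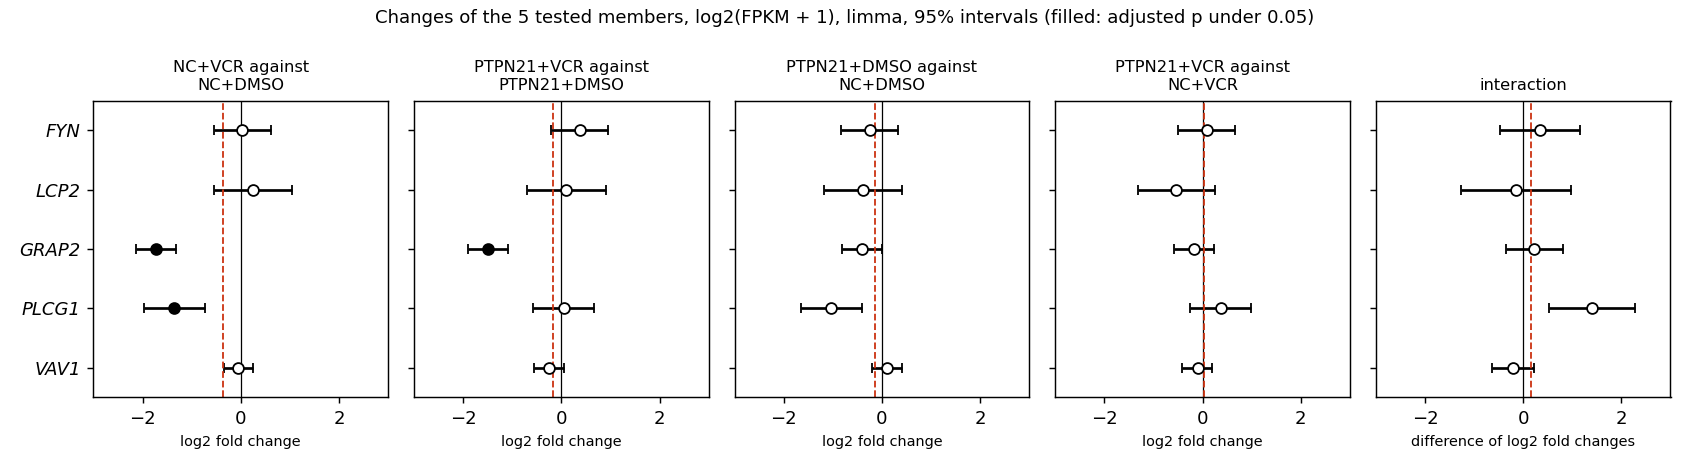
Log2 fold changes on the log2(FPKM + 1) scale of the 5 tested members in the 4 comparisons, and the interaction as a difference of log2 fold changes; bars are 95% intervals from limma, filled points passed an adjusted p of 0.05, and the dashed line is the median of all 11591 genes tested. The filled points are GRAP2 (-1.73) and PLCG1 (-1.35) in NC cells and GRAP2 (-1.49) in PTPN21 cells.

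Other genes of the pathway were taken from 5 lists of receptor chains, negative regulators, positive regulators and co-adaptors, downstream branches, and closest relatives of the members. Of 83 genes in the table, 45 were tested. With VCR in NC cells 3 of them rose, 10 fell and 32 did not pass, which is 28.9% called against 36.2% of all genes tested. In PTPN21 cells 3 rose, 8 fell and 34 did not pass, which is 24.4% against 28.5%. PTPN21 overexpression in DMSO gave 1 higher and 3 lower (8.89% against 6.34%). In VCR and for the interaction limma called 0 of 45, with 2 and 7 at an unadjusted p under 0.05, against 17.1% and 14.0% of all genes tested.

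Of the 9 receptor and coreceptor chains, only CD3D and TRBC1 were tested. CD3D, a signalling chain of the receptor, rose with VCR in NC cells from 79.3 ± 16.2 to 123 ± 13.3 FPKM (SD, n = 3; log2 fold change 0.64, limma adjusted p = 0.00655). In PTPN21 cells its means were 130 FPKM in DMSO and 109 in VCR (-0.24, limma adjusted p = 0.248), and the interaction of -0.88 had an unadjusted p of 0.00128 and an adjusted p of 0.128 in limma. It was also higher in PTPN21+DMSO than in NC+DMSO (0.72, limma adjusted p = 0.0235), a call that held in 13 of 20 alternative processing settings. TRBC1, a constant segment of the receptor beta chain, fell with VCR in PTPN21 cells from 3.28 ± 0.744 to 0.640 ± 0.642 FPKM (SD, n = 3; -1.44, limma adjusted p = 0.0398), a call that held in 9 of the 19 alternatives in which it was tested. TRBC1 and TRBC2 are near-identical, so reads may have been split between them.

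Among the 7 negative regulators tested, the same 3 genes fell with VCR in NC and in PTPN21 cells and 4 did not pass, which is 42.9% called in each against 36.2% and 28.5% of all genes tested. CSK, the kinase that phosphorylates the inhibitory site of LCK and FYN, fell by 1.67 on the log2 scale in NC cells, from 11.7 ± 0.983 to 3.26 ± 1.68 FPKM (SD, n = 3; limma adjusted p = 0.00151). In PTPN21 cells it fell by 0.87 (limma adjusted p = 0.0492), and that call held in 5 of 20 alternatives. The phosphatase PTPN6 (SHP-1) fell by 1.04 in each cell type, and the adaptor DOK1 fell by 1.07 in NC cells and by 0.82 in PTPN21 cells, where the call held in 16 of 19 alternatives.

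Of the 11 positive regulators and co-adaptors tested, 1 rose and 2 fell in NC cells with VCR, and likewise in PTPN21 cells, which is 27.3% called in each against 36.2% and 28.5% of all genes tested. FYB1 (ADAP), which binds LCP2, fell by 1.73 on the log2 scale in NC cells, where it was 2.71 FPKM in DMSO and 0.0985 in VCR, and by 0.76 in PTPN21 cells, where the call held in 12 of 19 alternatives. GRB2, which binds LAT, fell by 0.73 in NC cells with overlapping groups and held in 13 of 20 alternatives. In PTPN21 cells GRB2 was at -0.59 and did not pass (limma adjusted p = 0.0846). UNC119, an activator of Src family kinases, rose by 0.51 in NC cells and held in 7 of 20. In PTPN21 cells UNC119 also rose by 0.51 but did not pass (limma adjusted p = 0.0544). PTPRC (CD45), the phosphatase that opens LCK and FYN, rose by 1.26 in PTPN21 cells with VCR, from 11.9 ± 3.35 to 29.5 ± 4.93 FPKM (SD, n = 3; limma adjusted p = 0.00161). In NC cells PTPRC had means of 22.5 FPKM in DMSO and 31.4 in VCR (0.48, limma adjusted p = 0.111). It was lower in PTPN21+DMSO than in NC+DMSO (-0.88, limma adjusted p = 0.0419), which held in 5 of 20 alternatives. WAS, an actin regulator, fell by 0.90 in PTPN21 cells and held in 13 of 19. In NC cells WAS was at -0.71 and did not pass (limma adjusted p = 0.0544). The interaction passed for none of the 11 genes.

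Downstream of PLCG1, 22 genes of the Ras, PKC and calcium branches were tested. In NC cells 1 rose and 5 fell with VCR, and in PTPN21 cells 1 rose and 2 fell, which is 27.3% and 13.6% called against 36.2% and 28.5% of all genes tested. The calcium branch gave ITPR1, the channel opened by the product of PLCG1, which fell by 1.05 in NC cells and by 0.57 in PTPN21 cells and was lower in PTPN21+DMSO than in NC+DMSO (-0.73), where the last 2 calls held in 12 and 8 of 20 alternatives. STIM1, the calcium sensor of the endoplasmic reticulum, fell by 1.03 with VCR in NC cells, a call that held in 19 of 20 alternatives. It was lower with PTPN21 in DMSO (-1.38, limma adjusted p = 0.0192, held in 14 of 20 alternatives). PPP3R1, the regulatory subunit of calcineurin, fell by 1.25 in NC cells. With VCR in PTPN21 cells neither passed, at -0.02 for STIM1 (limma adjusted p = 0.963) and -0.4 for PPP3R1 (limma adjusted p = 0.267). The interaction passed for neither gene. BCL10, of the NF-kB branch, rose with VCR by 0.57 on the log2 scale in NC cells, just past the threshold (limma adjusted p = 0.0483). In PTPN21 cells BCL10 rose by 0.82, where the call held in 18 of 19 alternatives and was lost without replicate 2 of PTPN21+VCR. RAC1, a GTPase that VAV1 acts on, fell by 0.37 in NC cells, about as much as the median of all genes tested. In PTPN21 cells it fell by 0.48, where the call was lost under median ratio scaling (-0.30, limma adjusted p = 0.147). Relative to the median of all genes tested, RAC1 was at -0.01 in NC cells and -0.31 in PTPN21 cells.

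Of 3 relatives of the members that were tested, SRC, YES1 and PLCG2, none passed with VCR in NC cells. YES1 rose with VCR in PTPN21 cells from 5.59 ± 3.47 to 17.3 ± 1.27 FPKM (SD, n = 3; 1.65, limma adjusted p = 0.0468), which held in 9 of 20 alternatives.

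**Figure D4:**
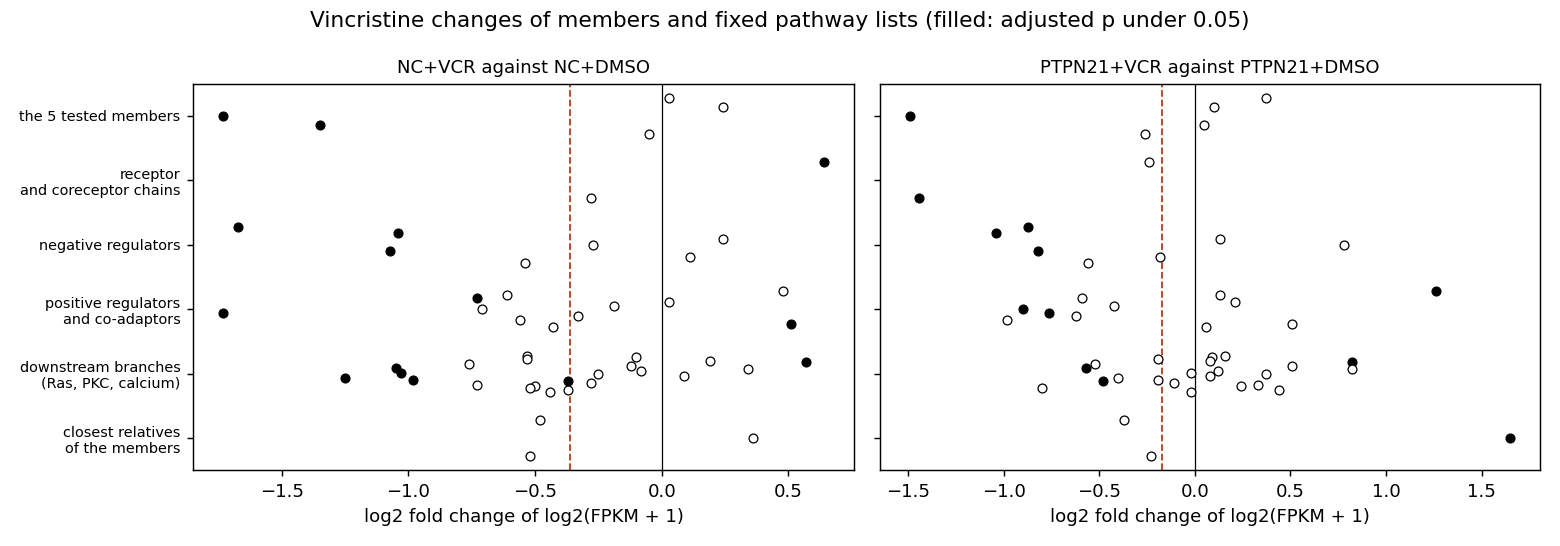
Log2 fold changes on the log2(FPKM + 1) scale with VCR in NC cells and in PTPN21 cells for the 5 tested members and the tested genes of the 5 pathway lists, 1 point per gene; filled points passed an adjusted p of 0.05 in limma and the dashed line is the median of all genes tested (-0.36 and -0.17). Filled points lie on both sides of 0, and 3 negative regulators lie on the left in both panels.

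For each tested member the 2 genes with the most similar profile were taken by Pearson's correlation of log2(FPKM + 1) over the 12 libraries, a description in which the 4 groups share one table and its scaling. MNS1 (0.983) and SLC29A1 (0.982) were closest to GRAP2. For PLCG1 they were IKBKB (0.932) and NNT (0.925), and for VAV1 ALDOA (0.931) and ZDHHC4 (0.929). FYN was closest to SSR1 (0.910) and TMEM273 (0.830), and LCP2 to NDFIP1 (0.857) and SMARCD1 (0.851). No member was among the closest genes of another.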

How the data were processed

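RNA was extracted with Trizol, and an outside company made and analysed the libraries. A single table of FPKM, with no counts, was deposited by the authors. The submitters' processing notes name fastp and Bowtie2, without versions, and mm10, a mouse build, although the table holds human Ensembl identifiers; the counting program and strandedness were not given in the sources used here. All 12 value columns were matched to samples by name.

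Values were analysed as log2(FPKM + 1), which understates changes of low genes. A mean of 1 FPKM or more over the 12 libraries was required, which kept 11591 genes. limma 3.58.1 (R 4.3.3), with an intensity trend, was fitted over all libraries with a mean for each of the 4 groups and no block, with Benjamini-Hochberg adjustment over all genes kept and a threshold of 0.05. Depth was estimated from 8702 single-exon genes, where 40.8% to 51.5% of low values lay within 0.1 of a whole step, against 20% by chance. The members and lists were chosen with earlier results of these data known. Named genes were the members, up to 3 genes past the threshold per list and comparison with the largest change, the 2 genes most like each member, PTPN21 and the markers; the other relatives, the erythroid genes, the T lineage factors, and BCL10, RAC1 and CD3D in further comparisons were named after their values were seen, and 1 listed gene is not reported here. The fits were repeated with a pseudocount of 0.1, without the filter, with a minimum mean of 5 FPKM, with TPM or median ratio scaling, without the trend, on only the 2 groups compared, with a replicate block and without each library in turn.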

Additional observations from a re-analysis of the deposited data

How the results depend on the processing

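The falls of GRAP2 with VCR passed in all 20 alternatives, at -1.90 to -1.33 on the log2 scale in NC cells and -1.58 to -1.31 in PTPN21 cells, and that of PLCG1 in NC cells passed in all 20, at -1.61 to -1.0. FYN, LCP2 and VAV1 passed in none. For PTPN21 overexpression in DMSO the count of members past the threshold went from 0 to 1 (PLCG1) with a minimum mean of 5 FPKM and with TPM scaling, and ranged from 0 to 1 when single libraries were left out, being 1 without replicate 2 of NC+VCR. Values of members that did not pass changed sign. FYN with VCR in NC cells was -0.076 under TPM scaling, 0.41 under median ratio scaling and -0.32 to 0.27 with single libraries left out (negative without replicate 3 of NC+DMSO or replicate 2 of NC+VCR). VAV1 with VCR in NC cells was 0.34 under median ratio scaling and -0.14 to 0.10 with libraries left out, and VAV1 with PTPN21 in DMSO was -0.041 under TPM scaling. With libraries left out, LCP2 ranged from -0.30 to 0.59 with VCR in PTPN21 cells and from -0.87 to 0.012 with PTPN21 in DMSO (sign changed without replicate 1 of PTPN21+DMSO), and from -0.54 to 0.34 for the interaction. PLCG1 with VCR in PTPN21 cells ranged from -0.16 to 0.18, and FYN with PTPN21 in VCR from -0.15 to 0.44. The FYN to LCK difference ranged from -0.32 to 0.27 with VCR in NC cells and from -0.15 to 0.44 with PTPN21 in VCR. The cause was not tested.

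For the 45 pathway genes these alternatives were added after seeing the data. The count with VCR in PTPN21 cells, 11, was 5 with no filter, 6 with a minimum mean of 5 FPKM, 17 with only the 2 groups compared, and 4 to 16 with single libraries left out (4 without replicate 1 or replicate 2 of PTPN21+VCR). With PTPN21 in DMSO it was 4, and 0 with no filter, 2 with median ratio scaling, 1 with no intensity trend, 0 with only the 2 groups compared, and 0 to 9 with libraries left out (9 without replicate 2 of NC+DMSO). Of 986 values of single genes, 844 kept their direction and side of the threshold, 123 lost the call, 3 gained it and 16 changed sign.

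With the replicate number as a block, the members past the threshold were 2 with VCR in NC cells and 1 in PTPN21 cells, and the pathway counts were 7 with VCR in PTPN21 cells and 2 with PTPN21 in DMSO. Deviations of same-numbered libraries correlated at -0.145 to 0.058, with 0 of 18 above 0.1, so no deviation common to them was seen. These correlations cannot show whether such libraries shared a culture or batch. The 3 libraries per group limit the precision. LCK was at 0 throughout, and ZAP70 and LAT varied between libraries from 0 to 0.674 and 0.796 FPKM. Whether depth limits these low members was not tested.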
